A study of Mus musculus with 28 samples.

Results

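Wdfy1 was followed together with 9 genes of Toll-like receptor signalling in mouse skin: the receptors Tlr2, Tlr3, Tlr4, Tlr7 and Tlr9, the adaptors Ticam1, Ticam2 and Myd88, and the transcription factor Irf3. The 10 genes were chosen by name, and each was found once among the 51976 genes that the tables of both experiments share by Ensembl identifier. The choice was made with earlier results of these data known, and Wdfy1 was most likely taken for its level in the whole-body knockout, so all Wdfy1 values of that experiment are given as a description, without a test.

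The study asked how loss of VISTA (gene Vsir), an inhibitory immune checkpoint protein, changes the skin's response to ultraviolet B light (UVB). RNA came from whole skin of female mice of 12 weeks whose hair had been removed 5 days earlier, and the UV groups received 500 mJ/cm2. Sample titles put the harvest at 3 h after UVB, whereas the treatment protocol states 1 day, and the conflict was not settled. The series title names epidermis and the labels name skin.

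In the whole-body experiment, VISTA knockout mice (KO, genotype Vsir-/-) after UV (KO_UV) and without UV (KO_NoUV) were compared with wild-type mice after UV (WT_UV) and without (WT_NoUV), 3 libraries each. The keratinocyte experiment had mice in which Cre under the keratin 14 promoter (K14cre) deletes the floxed Vsir gene (cKO_UV and cKO_NoUV) and mice with floxed Vsir but no Cre named in the label (FL_UV and FL_NoUV), 4 libraries each. K14-driven Cre is used to delete a gene in keratinocytes, and other cell types are meant to keep Vsir. Deletion was not measured by cell type in these data. The experiments belong to different batches in the labels, and levels were not tested across them. Replicates are separate samples in the labels, which do not state that same-numbered samples share a mouse. In the keratinocyte experiment the labels also give each library an identifier of its own.

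Whole-body libraries held 30470828 to 43837915 counts and keratinocyte libraries 7117198 to 31138604. Vsir itself was at 1.98 to 6.87 CPM (gene counts scaled to a common library size) in the 6 KO libraries and at 20.2 to 46.1 CPM in the 6 WT libraries. Vsir in the keratinocyte experiment ranged from 14.5 to 45.0 CPM in cKO libraries and from 19.4 to 38.5 CPM in FL libraries, and no lower Vsir level was detected in whole skin (log2 fold change over both treatments 0.17, SE 0.22). Summed over 6 keratinocyte markers (Krt5, Krt14, Krt1, Krt10, Krt15, Trp63), the level was 9580 to 15500 CPM in KO libraries and 18200 to 33400 CPM in WT libraries, and 3 of the 6 markers were lower in KO by the test. All 6 markers were detected in every group. Markers of growing hair follicles set some libraries of both experiments apart. In the whole-body experiment the 8 tested markers summed to 91.3 CPM in WT_UV replicate 3 and 81.1 CPM in WT_NoUV replicate 3, against 11.9 to 22.6 CPM in the other libraries. In the keratinocyte experiment the sums were 17.1 to 316 CPM in cKO_UV, 19.5 to 8550 CPM in cKO_NoUV, 20.7 to 2340 CPM in FL_UV and 17.2 to 5690 CPM in FL_NoUV. In bulk skin, fewer cells of a type and less RNA per cell cannot be told apart.

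Toll-like receptors bind parts of microbes and molecules released by damaged cells. TLR3, TLR7 and TLR9 bind nucleic acids inside endosomes, whereas TLR2 and TLR4 sit at the cell surface. Most of them signal through the adaptor MYD88 to NF-kB, whereas TLR3 uses TRIF (gene Ticam1) to reach the interferon regulatory factor IRF3, and TLR4 uses both routes, with TRAM (Ticam2) as a bridge to TRIF. WDFY1 is an endosomal protein with a FYVE domain and WD repeats that has been described to bring TRIF to TLR3 and TLR4. In skin, TLR3 of keratinocytes is known as a sensor of RNA set free by UV-damaged cells.

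Wdfy1 (ENSMUSG00000073643) lies on chr1:79702262-79776143 (GRCm38, minus strand, 6488 exon bases), and its first bases overlap Mrpl44 on the other strand. It was lowest in unirradiated knockout skin. Its 3 values were 27.4, 28.5 and 27.8 CPM in KO_UV libraries and 15.2, 13.9 and 13.1 CPM in KO_NoUV libraries. In wild-type skin they were 49.3, 37.6 and 46.2 CPM in WT_UV libraries and 38.3, 46.1 and 49.1 CPM in WT_NoUV libraries. No KO library reached the lowest WT library, and every KO_UV library stood above every KO_NoUV library, while WT_UV and WT_NoUV overlapped.

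The group means of Wdfy1 were 27.9 ± 0.54 CPM in KO_UV and 14.04 ± 1.06 CPM in KO_NoUV, against 44.4 ± 6.05 CPM in WT_UV and 44.5 ± 5.54 CPM in WT_NoUV (SD, n = 3 each). On the log2 scale, KO minus WT was -1.66 (SE 0.15) without UV and -0.67 (SE 0.15) after UV. UV minus no UV was 0.99 (SE 0.15) in KO and 0.00 (SE 0.15) in WT. The order from low to high was KO_NoUV, KO_UV and then both WT groups, whose means lay within each other's SD. Across all alternative settings tried, including the loss of any 1 library, KO minus WT without UV stayed between -1.76 and -1.57. After UV it stayed between -0.79 and -0.61. These refits reuse the libraries on which Wdfy1 was most likely chosen, so the ranges are a description and no independent support. The lower Wdfy1 of KO skin went along with its lower keratinocyte marker sum (9580 to 15500 CPM in KO and 18200 to 33400 CPM in WT). The part of this in the Wdfy1 difference was not tested.

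**Figure D1:**
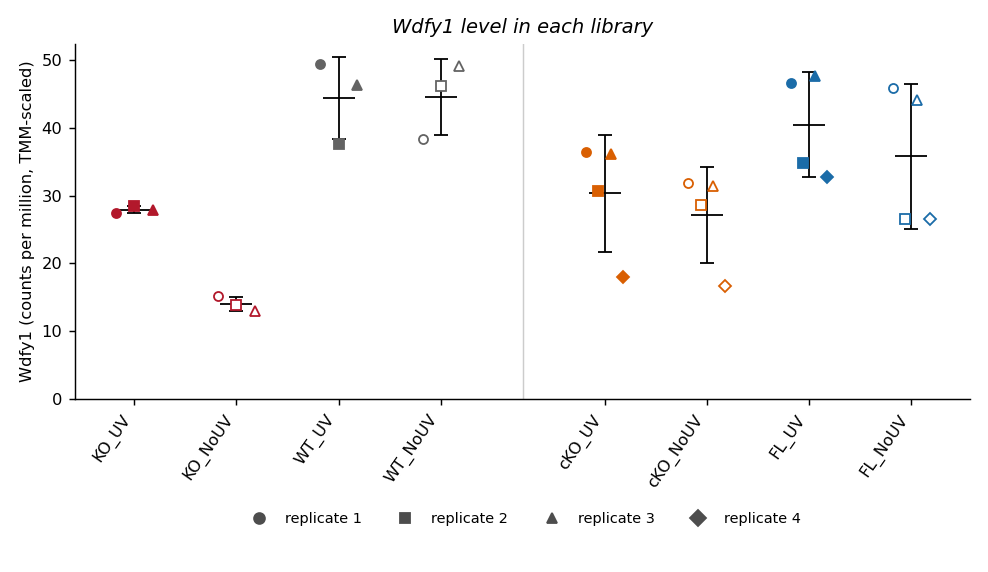
Wdfy1 level in CPM (y axis) in each of the 28 libraries by group (x axis; filled, after UV; open, without UV; symbols, replicate numbers), with the mean and SD of each group. The whole-body experiment is left of the grey line and the keratinocyte experiment right of it: KO libraries lie between 13.1 and 28.5 CPM, below all WT libraries, whereas cKO and FL libraries overlap.

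The keratinocyte experiment did not enter the choice of Wdfy1 as far as the sources show, and there it could be tested. Wdfy1 was at 36.3, 30.7, 36.1 and 18.1 CPM in cKO_UV libraries and at 31.8, 28.6, 31.4 and 16.7 CPM in cKO_NoUV libraries. Its values were 46.6, 34.9, 47.5 and 32.7 CPM in FL_UV libraries and 45.9, 26.6, 44.0 and 26.6 CPM in FL_NoUV libraries. The cKO mean was below the FL mean in both treatments, with overlapping libraries. Over both treatments cKO minus FL was -0.41 on the log2 scale (SE 0.18, 95% interval -0.79 to -0.02), which edgeR's quasi-likelihood test did not call after Benjamini-Hochberg adjustment over 19718 genes (adjusted p = 0.44). An exact two-sided permutation test of Wdfy1 alone, over the 4900 arrangements of genotype within treatment, gave p = 0.0518 for a difference of -0.42. Both tests treat UV and no-UV libraries as independent, although same-numbered cKO libraries deviated together. Their p-values may therefore be too small, and the effect of this on them was not tested.

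UV left Wdfy1 without a detected difference in the keratinocyte experiment, with 0.16 in cKO (95% interval -0.39 to 0.70, adjusted p = 0.76) and 0.18 in FL (95% interval -0.37 to 0.73, adjusted p = 0.73; edgeR). Among same-numbered cKO libraries, Wdfy1 was higher after UV in 4 of 4 cases. With the replicate block the difference was 0.15 (edgeR adjusted p = 0.50). Every FL_UV library was likewise above the FL_NoUV library of its number, although FL numbers did not deviate together in every pair. Same-numbered libraries carry different identifiers and are not shown to share a mouse, so these orders are a description only. The difference between the experiments was not tested for Wdfy1. Averaged over genotypes, the UV effect of the whole-body minus the keratinocyte experiment was 0.32 (95% interval -0.16 to 0.81), as a description. In cKO skin replicate 4 was the lowest library in both treatments, and in FL skin replicates 2 and 4 were below replicates 1 and 3 in both.

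The other genes with the WDFY name are Wdfy2, Wdfy3 and Wdfy4. WDFY2 and WDFY3 are FYVE-domain proteins, WDFY3 being an autophagy scaffold, and WDFY4 acts in antigen cross-presentation by dendritic cells. None of the 3 was called between KO and WT, where Wdfy2 differed by -0.09 (SE 0.09), Wdfy3 by -0.08 (SE 0.13) and Wdfy4 by 0.04 (SE 0.18) over both treatments. After UV, Wdfy2 fell to 53.8 ± 5.44 CPM in KO_UV, against 76.4 ± 6.58 CPM in KO_NoUV (log2 fold change -0.51, SE 0.13, edgeR adjusted p = 0.0152), and to 59.0 ± 4.77 CPM in WT_UV, against 79.4 ± 6.76 CPM in WT_NoUV (log2 fold change -0.43, SE 0.13, adjusted p = 0.0383; SD, n = 3 each). Wdfy4 fell in KO (log2 fold change -0.80, SE 0.25, adjusted p = 0.0341). Leaving out 1 library ended these calls in 2, 7 and 5 of 12 cases for Wdfy2 in KO, Wdfy2 in WT and Wdfy4 in KO, with adjusted p up to 0.153. The Wdfy2 call in WT was also lost without the filter on low counts (0.081), with the replicate block (0.0564) and in a fit of the WT groups alone (0.186).

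The genes next to Wdfy1 were not called between KO and WT. Ap1s3 on one side differed by 0.00 between KO and WT over both treatments (SE 0.13), and Serpine2 on the other by 0.34 (SE 0.10, edgeR adjusted p = 0.0593). The overlapping Mrpl44 differed by -0.18 (SE 0.11, adjusted p = 0.287). Within 5 Mb on either side, 2 of 70 tested genes were called (2.86%), against 7.45% of all tested genes in this comparison. They were Gm6189, lower in KO (0.70 CPM on average in KO and 1.81 CPM in WT, log2 fold change -1.47, SE 0.36, adjusted p = 0.0334), and Gm15179, higher in KO (2.73 CPM in KO and 1.71 CPM in WT, log2 fold change 0.66, SE 0.19, adjusted p = 0.0482).

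Genes were ranked by Pearson correlation of log2 CPM with Wdfy1 over the 12 whole-body libraries. Predicted genes (names of Gm plus digits or ending in Rik) were left out first. The most alike of the 15576 genes kept were Kntc1 (r = 0.88), Pask (0.87), Pole (0.87), Fancd2 (0.85) and Mroh2a (0.83). Over the 16 keratinocyte libraries the same genes had r of 0.60, 0.44, 0.58, 0.51 and -0.02. The most opposite genes were Col10a1 (r = -0.95), C2cd4c (-0.92) and Ganc (-0.92). Over the keratinocyte libraries C2cd4c had r of -0.21 and Ganc -0.51, and Col10a1 had no value. The highest group means were only 0.72 CPM for Col10a1, 1.05 CPM for C2cd4c and 1.01 CPM for Mroh2a. The 12 whole-body libraries share the genotype and treatment steps, so the values describe likeness only. Among the other 9 members, r with Wdfy1 ran from -0.70 for Tlr3 to 0.39 for Irf3 over the 12 libraries.

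Levels between genes were compared per length, as CPM per kilobase of exon (RPKM). In the whole-body experiment the median over 12 libraries was highest for Myd88 (13.2 RPKM), then Irf3 (7.48), Wdfy1 (5.10), Tlr4 (4.07), Tlr7 (3.63), Tlr2 (3.01), Ticam1 (2.76), Tlr3 (2.71), Ticam2 (0.890) and Tlr9 (0.548). In the keratinocyte experiment Myd88 (15.6 RPKM) and Irf3 (9.49) again led, and Ticam2 (1.06) and Tlr9 (2.86) were last. All 10 members passed the filter on low counts in both experiments. The lowest count behind any value was 14 reads, for Tlr9 in KO_UV replicate 1.

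**Figure D2:**
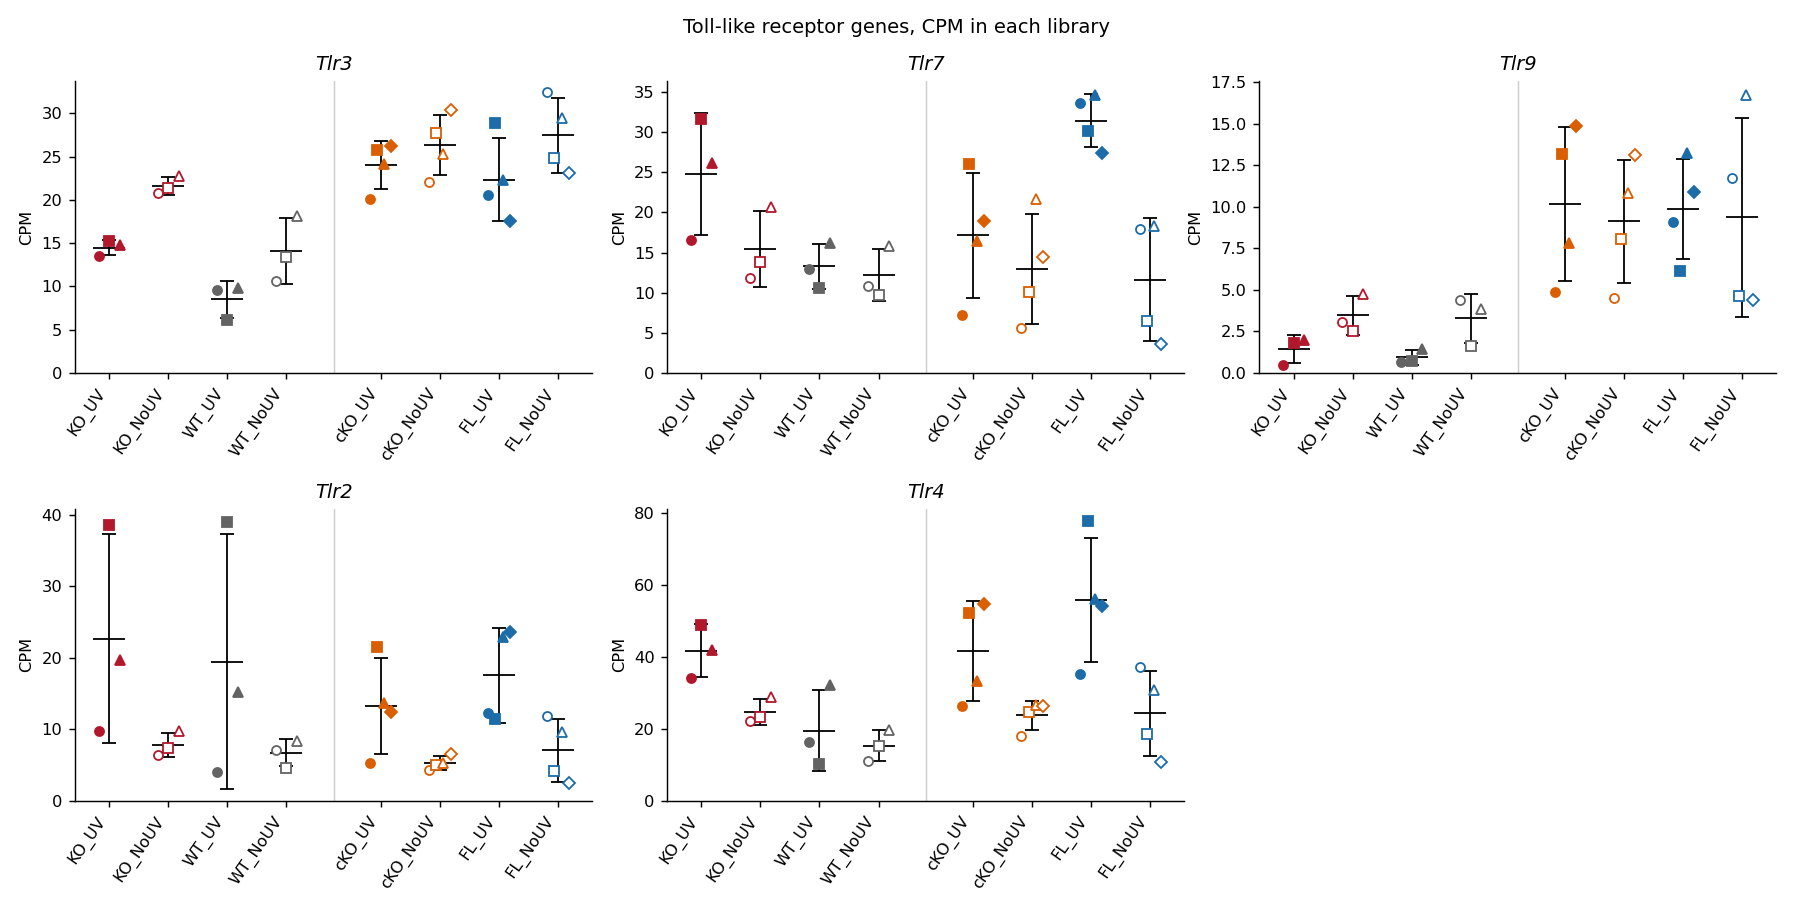
CPM (y axes) of the 5 receptor genes in each library by group (x axes; filled, after UV; open, without UV; symbols, replicate numbers), with means and SD. Tlr3 lies higher in KO than in WT within each treatment, Tlr9 lies lower after UV left of the grey line (whole-body experiment), and Tlr2 after UV spreads from 4.03 to 39.0 CPM in WT_UV.

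Tlr3 (ENSMUSG00000031639, chr8:45395665-45411080, GRCm38), the receptor for double-stranded RNA, was higher in KO than in WT skin. It measured 13.5, 15.2 and 14.7 CPM in KO_UV libraries, against 9.62, 6.07 and 9.85 CPM in WT_UV libraries. Without UV it measured 20.8, 21.4 and 22.8 CPM in KO_NoUV libraries, against 10.7, 13.4 and 18.2 CPM in WT_NoUV libraries. The genotypes did not overlap within either treatment. Over both treatments the log2 fold change was 0.69 (SE 0.16), which edgeR called (adjusted p = 0.0241), and it was 0.62 (SE 0.22) without UV and 0.77 (SE 0.22) after UV, neither called alone.

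That call for Tlr3 was lost without KO_NoUV replicate 1, 2 or 3 or KO_UV replicate 2, with adjusted p of 0.0529 to 0.0717. Tlr3 also moved with UV. In WT the WT_UV libraries all lay below the WT_NoUV libraries, with a log2 fold change of -0.73 (SE 0.22, edgeR adjusted p = 0.0358). In KO it was -0.58 (SE 0.22, adjusted p = 0.0742, and 0.00232 in a fit of the KO groups alone), with no overlap either. The WT call was lost in 7 of the 12 fits without 1 library (adjusted p 0.0503 to 0.155), and in a fit of the WT groups alone (0.18).

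Tlr3 in the keratinocyte experiment ranged from 20.2 to 30.3 CPM in cKO libraries and from 17.6 to 32.4 CPM in FL libraries. The genotypes differed by 0.03 over both treatments (95% interval -0.22 to 0.28, edgeR adjusted p = 0.95). This interval lies below the 0.69 of KO against WT, but the experiments were not compared by a test. UV gave -0.13 in cKO (adjusted p = 0.68) and -0.30 in FL (adjusted p = 0.31).

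Tlr9 (ENSMUSG00000045322, chr9:106222598-106226883, GRCm38), the receptor for CpG DNA, had the largest fold change after UV among members called in any genotype. It measured 0.48, 1.81 and 2.002 CPM in KO_UV libraries, against 3.08, 2.54 and 4.75 CPM in KO_NoUV libraries. In WT it measured 0.68, 0.69 and 1.42 CPM in WT_UV libraries, against 4.41, 1.61 and 3.82 CPM in WT_NoUV libraries. Neither pair of groups overlapped. The log2 fold change was -1.82 in WT (SE 0.52, edgeR adjusted p = 0.0273) and -1.26 in KO (SE 0.50, adjusted p = 0.091, and 0.0467 by DESeq2).

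The Tlr9 call in WT was lost without WT_NoUV replicate 1 or 3 or WT_UV replicate 1 or 2, with adjusted p of 0.0602 to 0.0832, and in a fit of the WT groups alone (0.0545). UV made no detected difference to Tlr9 in the keratinocyte experiment. Its values were 4.86, 13.2, 7.82 and 14.8 CPM in cKO_UV libraries and 4.52, 8.05, 10.8 and 13.1 CPM in cKO_NoUV libraries. In FL it was at 9.08, 6.13, 13.2 and 10.9 CPM with UV and at 11.8, 4.61, 16.7 and 4.39 CPM without. The fold changes were 0.16 in cKO (95% interval -0.81 to 1.13) and 0.08 in FL (-0.89 to 1.05).

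A joint fit of all 28 libraries tested the UV effect, averaged over genotypes, of the whole-body minus the keratinocyte experiment. For Tlr9 it was -1.66 (SE 0.51, edgeR adjusted p = 0.0422). The call was lost in 17 of 28 fits without 1 library (adjusted p 0.0513 to 0.0841) and without the filter on low counts (0.0979). Of 9 tested members, 2 were called lower, Tlr9 and Ticam1, and none higher. Of 21851 genes, 5.11% were called higher, 3.98% lower and 9.09% in either direction. The experiments differ in batch, controls and depth, and these cannot be told apart from the mice.

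The 250 bases upstream of the Tlr9 start are shown because Tlr9 is the called receptor whose upstream window holds no annotated exon. They come from RefSeq (GRCm38.p6, chr9:106222348-106222597, plus strand), with the bases that match the AP-1 motif TGANTCA in capitals.
Tlr9: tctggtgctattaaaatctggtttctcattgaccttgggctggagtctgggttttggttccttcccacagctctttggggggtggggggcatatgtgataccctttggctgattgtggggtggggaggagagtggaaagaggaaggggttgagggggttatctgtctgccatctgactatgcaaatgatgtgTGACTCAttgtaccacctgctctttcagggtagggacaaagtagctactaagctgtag

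The match starts 58 bases before the Tlr9 start, and the motif reads the same on both strands. It occurs in 6.75% of 32841 mouse windows of the same length. For 6 of the 10 members (Tlr2, Tlr3, Tlr9, Ticam1, Myd88 and Irf3) the RefSeq table held the 250 bases before a RefSeq start. By the GENCODE extents printed here, those of Tlr3 and Myd88 lie inside the gene, those of Tlr2 and Ticam1 overlap its first exon, and that of Irf3 overlaps an exon of Bcl2l12. An NF-kB motif, read as GGGA and CC with any 4 bases between them on either strand, matched in the windows of Tlr2 and Tlr3 and in 17.64% of all windows. An interferon response motif, read as GAAA and GAAA with any 2 bases between them on either strand, matched in the window of Myd88 and in 2.98% of all windows. None of the 3 motifs matched in the Ticam1 or Irf3 windows. A match of letters does not show that a factor binds there.

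Tlr7 (ENSMUSG00000044583, chrX:167304929-167330558, GRCm38), the receptor for single-stranded RNA, measured 16.5, 31.6 and 26.2 CPM in KO_UV libraries, against 13.01, 10.6 and 16.2 CPM in WT_UV libraries. All KO_UV libraries lay above all WT_UV libraries, whereas KO_NoUV (11.8, 13.8 and 20.7 CPM) and WT_NoUV (10.9, 9.72 and 15.8 CPM) overlapped. Over both treatments the log2 fold change was 0.62 (SE 0.20), which edgeR did not call (adjusted p = 0.0688), whereas DESeq2 did (0.0274), as did edgeR without the filter (0.0375). For UV in KO it was 0.68 (SE 0.28, adjusted p = 0.103), and 0.0477 with the replicate number as a block.

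In the keratinocyte experiment Tlr7 stood at 7.20, 26.0, 16.5 and 18.9 CPM in cKO_UV libraries, all below the 33.6, 30.1, 34.7 and 27.4 CPM of FL_UV libraries. FL_UV libraries also lay above FL_NoUV libraries (17.99, 6.47, 18.3 and 3.63 CPM), while cKO_UV overlapped with cKO_NoUV (5.596, 10.0, 21.6 and 14.4 CPM). None of this was called by edgeR: cKO minus FL after UV was -0.88 (SE 0.49, adjusted p = 0.87), and UV in FL was 1.46 (SE 0.50, adjusted p = 0.0918). DESeq2 called UV in FL (0.0234). The UV effect of cKO minus that of FL was -1.05 (95% interval -2.54 to 0.44).

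Tlr4 (ENSMUSG00000039005, chr4:66827584-66930284, GRCm38), the receptor for bacterial lipopolysaccharide, was higher in KO than in WT skin and in FL skin after UV. Its values were 34.1, 48.7 and 42.0 CPM in KO_UV libraries, against 16.2, 10.2 and 32.1 CPM in WT_UV libraries. Without UV they were 22.0, 23.3 and 28.7 CPM in KO_NoUV libraries, against 10.9, 15.3 and 19.5 CPM in WT_NoUV libraries. No overlap was seen between genotypes in either treatment. The log2 fold change over both treatments was 0.90 (SE 0.24, edgeR adjusted p = 0.0419). Leaving out any 1 library other than WT_NoUV replicate 3 or WT_UV replicate 3 ended this call (adjusted p 0.0577 to 0.114), as did fitting without the filter (0.072).

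In FL skin Tlr4 measured 35.2, 77.6, 56.1 and 54.0 CPM with UV, against 37.1, 18.5, 30.6 and 10.8 CPM without. FL_UV replicate 1 fell inside the FL_NoUV range. The log2 fold change was 1.21 (SE 0.34, edgeR adjusted p = 0.0407). In cKO it was 0.81 (SE 0.34, adjusted p = 0.145), and the difference between the genotypes was -0.41 (95% interval -1.42 to 0.61). The FL call was lost in 8 of 16 fits without 1 library (adjusted p 0.0531 to 0.123), in a fit of the FL groups alone (0.0844) and without the filter (0.14).

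Tlr2 (ENSMUSG00000027995, chr3:83836272-83841767, GRCm38), the receptor for bacterial lipoproteins, had a positive UV difference in all 4 genotypes, which edgeR called in none. The log2 fold change was 1.54 in KO (SE 0.62), 1.53 in WT (SE 0.63), 1.32 in cKO (SE 0.46) and 1.35 in FL (SE 0.46), with edgeR adjusted p of 0.0953, 0.107, 0.0797 and 0.0872. DESeq2 called it in cKO (adjusted p = 0.0248) and in FL (0.0273). Replicates varied widely: 9.80, 38.5 and 19.7 CPM in KO_UV libraries against 6.34, 7.35 and 9.70 CPM in KO_NoUV libraries, and 4.03, 39.0 and 15.2 CPM in WT_UV libraries against 7.12, 4.64 and 8.42 CPM in WT_NoUV libraries. Replicate 1 was the lowest UV library in KO, WT and cKO.

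Ticam1 (ENSMUSG00000047123, chr17:56269319-56276786, GRCm38), which encodes TRIF, was lower after UV in WT skin. Its values were 6.73, 6.51 and 5.79 CPM in KO_UV libraries, against 9.67, 9.70 and 9.03 CPM in KO_NoUV libraries. In WT they were 7.07, 7.11 and 7.598 CPM in WT_UV libraries, against 15.6, 8.90 and 9.47 CPM in WT_NoUV libraries. UV and no-UV libraries did not overlap in either genotype. The log2 fold change was -0.64 in WT (SE 0.21, edgeR adjusted p = 0.0485) and -0.58 in KO (SE 0.21, adjusted p = 0.0661). DESeq2 (0.0379) and a fit of the KO groups alone (0.00648) called it in KO.

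The WT call for Ticam1 held in only 1 of 12 fits without 1 library, that without WT_NoUV replicate 2 (adjusted p 0.0505 to 0.156 in the others). It was also lost with another size factor (0.0517), without the filter (0.0657) and in a fit of the WT groups alone (0.211). The UV fold change of Ticam1 in the keratinocyte experiment was 0.08 in cKO (SE 0.20) and 0.17 in FL (SE 0.20). Its levels there were 10.9 to 15.1 CPM in cKO_UV, 10.7 to 14.2 CPM in cKO_NoUV, 10.8 to 16.9 CPM in FL_UV and 7.79 to 15.4 CPM in FL_NoUV. The joint fit put the UV effect of the whole-body minus the keratinocyte experiment at -0.73 (SE 0.21, edgeR adjusted p = 0.0269). This call was lost without WT_NoUV replicate 1 or KO_UV replicate 3 (adjusted p 0.0546 to 0.0628) and without the filter (0.0803).

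**Figure D3:**
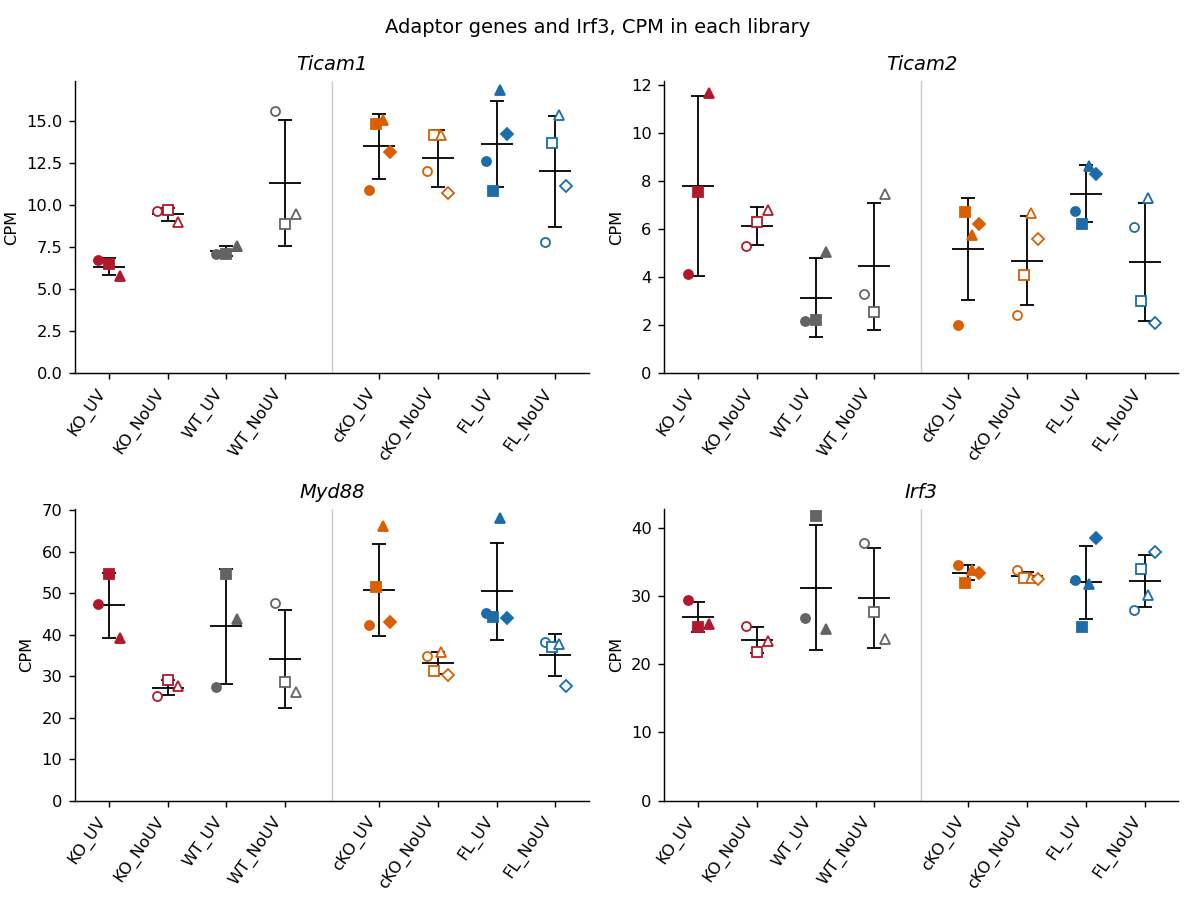
CPM (y axes) of the 3 adaptor genes and Irf3 in each library by group (x axes; filled, after UV; open, without UV; symbols, replicate numbers), with means and SD. Ticam1 lies at or below 7.598 CPM in all UV libraries of the whole-body experiment, and Myd88 lies higher after UV in KO, cKO and FL without overlap.

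Ticam2 (ENSMUSG00000056130) encodes TRAM and was scarcer than the other adaptors per length. It spanned 4.14 to 11.6 CPM in KO_UV, 5.27 to 6.80 CPM in KO_NoUV, 2.16 to 5.04 CPM in WT_UV and 2.56 to 7.47 CPM in WT_NoUV. KO minus WT over both treatments was 0.89 (SE 0.32), not called by edgeR (adjusted p = 0.0917) but called by DESeq2 (0.0371). The gene overlaps Tmed7 on the same strand, and reads in the shared part cannot be assigned to one of them. No Ticam2 difference was called in the keratinocyte experiment, and the largest was 0.71 for UV in FL (SE 0.42, adjusted p = 0.33).

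Myd88 (ENSMUSG00000032508, chr9:119335934-119341411, GRCm38; it overlaps Acaa1a on the other strand) was the most abundant member per length and was higher after UV in KO and cKO skin. It measured 47.4, 54.7 and 39.2 CPM in KO_UV libraries, against 25.3, 29.0 and 27.6 CPM in KO_NoUV libraries. In the keratinocyte experiment it measured 42.3, 51.5, 66.2 and 43.2 CPM in cKO_UV libraries, against 34.8, 31.4, 35.9 and 30.4 CPM in cKO_NoUV libraries. These groups did not overlap, nor did FL_UV (45.4, 44.3, 68.1 and 44.1 CPM) and FL_NoUV (38.2, 37.1, 37.8 and 27.7 CPM). In WT the values overlapped, at 27.4, 54.8 and 43.9 CPM in WT_UV and 47.8, 28.6 and 26.2 CPM in WT_NoUV.

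The log2 fold change of Myd88 was 0.79 in KO (SE 0.26, edgeR adjusted p = 0.0453), 0.62 in cKO (SE 0.17, adjusted p = 0.0343), 0.52 in FL (SE 0.17, adjusted p = 0.078, and 0.0394 by DESeq2) and 0.30 in WT (SE 0.26, adjusted p = 0.47). The KO call was lost with the replicate number as a block (adjusted p = 0.059) and with a score of the hair follicle markers as covariate (0.0592), and it was lost in 8 of 12 fits without 1 library (0.0566 to 0.168). The cKO call was lost without cKO_NoUV replicate 2, 3 or 4 or cKO_UV replicate 2 or 3 (0.0615 to 0.119), without both shallow libraries (0.11), and without the filter (0.0642). The UV effect of KO minus that of WT was 0.49 (95% interval -0.30 to 1.28), and of cKO minus FL 0.09 (-0.42 to 0.61), neither called.

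Irf3 (ENSMUSG00000003184, chr7:44997648-45002848, GRCm38; it overlaps Bcl2l12 on the other strand), the transcription factor at the end of the TRIF route, was called by edgeR in no comparison. It ranged from 21.8 to 29.5 CPM in KO libraries and from 23.7 to 41.8 CPM in WT libraries. In the keratinocyte experiment it ranged from 31.9 to 34.6 CPM in cKO libraries and from 25.5 to 38.5 CPM in FL libraries. The UV fold changes were 0.19 in KO (95% interval -0.27 to 0.65), 0.07 in WT (-0.39 to 0.53), 0.02 in cKO (-0.24 to 0.29) and -0.01 in FL (-0.27 to 0.25). KO minus WT over both treatments was -0.28 (SE 0.15, edgeR adjusted p = 0.23), and -0.42 with the hair follicle score as covariate (adjusted p = 0.0497).

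Counted by comparison, KO against WT over both treatments called 2 of 9 tested members higher (Tlr3 and Tlr4) and 0 lower. Of all 20365 genes, 3.93% were called higher, 3.52% lower and 7.45% in either direction. Within one treatment 0 of 9 were called. The share of all genes called was 0.00982% without UV, all of it lower in KO, and 0.0442% after UV (0.0393% higher and 0.00491% lower), and 1 and 4 members had an unadjusted p under 0.05. DESeq2 called none of the 9 without UV or after UV, and over both treatments it called Tlr7 (adjusted p = 0.0274) and Ticam2 (0.0371) beside Tlr3 and Tlr4. Leaving Wdfy1 aside, the members Tlr3 and Tlr4 were higher without overlap in KO_NoUV than in WT_NoUV, and none was lower. Of all genes, 12.8% were higher and 11.7% lower there, or 24.4% in either direction. In KO_UV against WT_UV, Tlr3, Tlr4 and Tlr7 were higher without overlap and Ticam1 lower. There 12% of genes were higher and 10.2% lower, or 22.2% in either direction. Wdfy1, lower in both, was most likely chosen for this and is not counted. The higher Tlr3 and Tlr4 of KO skin went along with the lower keratinocyte marker sum given above and with markers called higher for dendritic and Langerhans cells (3 of 6), skeletal muscle (2 of 4), macrophages (1 of 6), fibroblasts (1 of 5) and T cells (1 of 5). The part of these in the differences was not tested.

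**Figure D4:**
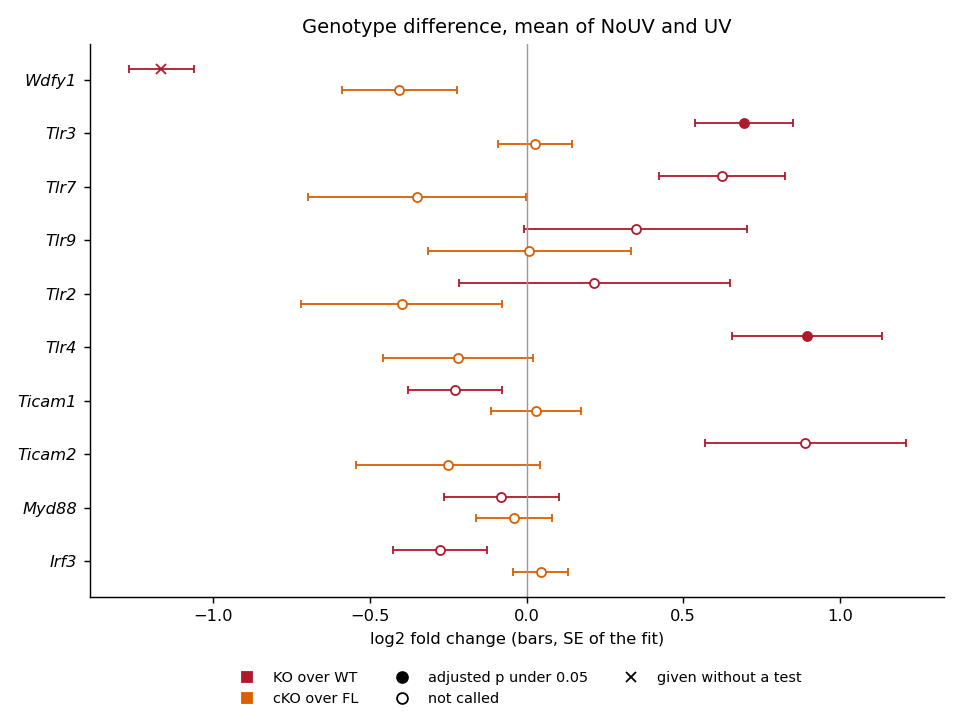
Log2 fold change (x axis; bars, SE of the fit) of each member (y axis) for KO over WT and cKO over FL, averaged over UV and no UV. Filled symbols mark an adjusted p under 0.05, which only Tlr3 (0.69) and Tlr4 (0.90) of KO over WT have, and the cross marks Wdfy1, given without a test.

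For cKO against FL, 0 of 10 members were called over both treatments, without UV or after UV, and 0% of 19718 genes were called in each of these comparisons. An unadjusted p under 0.05 was reached by 1 member over both treatments (Wdfy1) and by 0 within either treatment. DESeq2 called 94, 7 and 2 genes in these comparisons, none of them a member. Tlr7 after UV was the only member without overlap, lower in cKO, where 1.34% of genes were lower without overlap and 2.73% differed in either direction.

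UV called 1 of 9 members in KO (Myd88, higher), where 11.3% of 20365 genes were called higher and 11.1% lower, 22.4% in all. In WT it called 3 of 9 (Tlr3, Tlr9 and Ticam1, all lower), where 8.91% were called higher and 9.84% lower, 18.7% in all. Leaving Wdfy1 aside, the members Tlr2, Tlr4 and Myd88 were higher and Tlr3, Tlr9 and Ticam1 lower without overlap in KO_UV against KO_NoUV. Of all genes, 25.3% were higher and 25.4% lower there, or 50.7% in either direction. In WT_UV against WT_NoUV 0 members were higher and 3 lower, where 14.5% and 14.8% of genes were, or 29.4% in either direction. In cKO it called 1 of 10 (Myd88, higher), where 4.57% of 19718 genes were called higher and 5.15% lower, 9.72% in all. In FL it called 1 of 10 (Tlr4, higher), where 3.52% were called higher and 4.09% lower, 7.62% in all. Without overlap, 1 member was higher in cKO_UV than in cKO_NoUV (8.59% of genes higher, 9.05% lower, 17.6% in either direction) and 2 were higher in FL_UV than in FL_NoUV (6.67% higher, 7.79% lower, 14.5% in either direction). The members called are too few to set their share apart from that of all genes. Macrophage markers (Adgre1, Cd68, Csf1r, Mrc1, Lyz2, C1qa), all 6 detected, summed to 838 to 1620 CPM in KO_UV, 661 to 1030 in KO_NoUV, 622 to 1060 in WT_UV and 518 to 903 in WT_NoUV. The sums in the keratinocyte experiment were 268 to 884 CPM in cKO_UV, 303 to 644 in cKO_NoUV, 672 to 1070 in FL_UV and 245 to 914 in FL_NoUV. Neutrophil markers were called higher after UV in KO (3 of 4 tested) and in WT (1 of 4). All 5 neutrophil markers summed to 11.9 to 33.6 CPM in KO_UV and 4.37 to 9 CPM in KO_NoUV. T cell markers were called lower in KO (3 of 5) and WT (1 of 5), and fibroblast markers higher in KO (2 of 5). No neutrophil or T cell marker was called in cKO or FL. Of 6 keratinocyte markers, 1 was called lower in each genotype. Macrophage markers were called higher in KO (1 of 6), and B cell markers in KO and WT (1 of 3 tested each). Mast cell markers were called higher in cKO (3 of 4, 57.3 to 146 CPM in cKO_UV and 30.8 to 63.8 CPM in cKO_NoUV). In FL 0 of 4 were called (79.4 to 126 CPM in FL_UV and 51.5 to 80.4 CPM in FL_NoUV). In KO and in WT 1 of 4 mast cell markers was called lower. Of 3 tested plasmacytoid dendritic cell markers, edgeR called none with UV in any genotype. The part of these cells in the member differences was not tested.

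**Figure D5:**
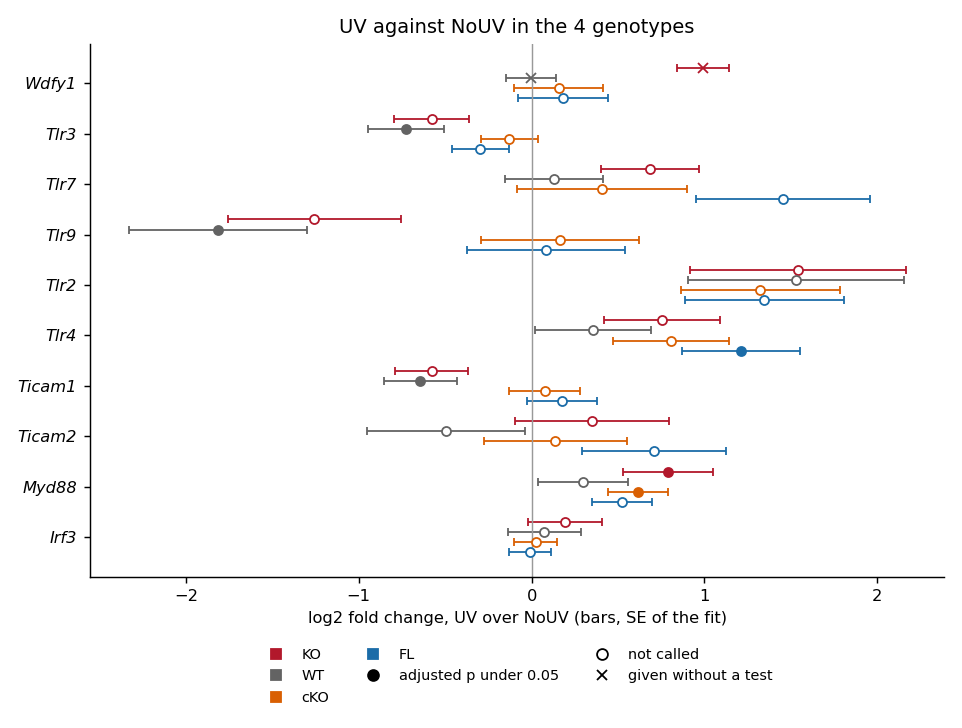
Log2 fold change of UV over no UV (x axis; bars, SE of the fit) for each member (y axis) in the 4 genotypes. Filled symbols mark an adjusted p under 0.05 (Tlr3, Tlr9 and Ticam1 in WT, Myd88 in KO and cKO, Tlr4 in FL), and crosses mark Wdfy1 in KO (0.99) and WT (0.00), given without a test.

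No member was called for a difference in UV effect between KO and WT, where 0% of genes were called, 313 genes had an unadjusted p under 0.05 and none of them was a tested member. The same held for cKO and FL (0% called, 248 genes under 0.05 unadjusted, none a member). DESeq2 called no member in either. For Wdfy1 the UV effect of KO minus that of WT was 0.99 (SE 0.21), given as a description.

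The wider pathway was described with 79 genes in 10 lists, of which 76 were tested in each experiment. KO against WT over both treatments called 6 higher and 1 lower, where 3.93% of all genes were called higher and 3.52% lower. In either direction 7.45% of all genes were called, and the shares were not compared by a test. The list had a median log2 fold change of 0.20 over the 76, against 0.02 over all genes. Of 7 cytosolic nucleic acid sensors, 3 were higher: Ifih1 (log2 fold change 0.89, SE 0.16, edgeR adjusted p = 0.0141) and Ddx58 (0.68, SE 0.15, adjusted p = 0.0251), which sense double-stranded RNA, and Zbp1 (1.36, SE 0.31, adjusted p = 0.0266), a Z-nucleic acid sensor. The chemokine gene Ccl5 (1.58, SE 0.34, adjusted p = 0.0217), the transcription factor gene Irf1 (0.72, SE 0.20, adjusted p = 0.046) and the inhibitory kinase gene Irak3 (0.37, SE 0.10, adjusted p = 0.045) were also higher.

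Sigirr, which encodes an inhibitory receptor, was lower in KO (-0.74, SE 0.19, edgeR adjusted p = 0.0356). The Ifih1 call held in all 12 fits without 1 library, while those of Ccl5, Zbp1, Ddx58, Sigirr, Irf1 and Irak3 were lost in 3, 4, 5, 6, 10 and 10 of them (adjusted p up to 0.132). Without the filter the calls of Zbp1 (0.0791) and Irak3 (0.0933) were lost. Within one treatment 0 of 76 were called, as for cKO against FL.

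UV called 6 of 76 pathway genes higher and 13 lower in KO, where 11.3% of all genes were called higher and 11.1% lower (22.4% in all). In WT it called 3 higher and 14 lower, where 8.91% and 9.84% were (18.7% in all). In cKO it called 7 higher and 2 lower, where 4.57% and 5.15% of all genes were (9.72% in all). In FL it called 9 higher and 2 lower, where 3.52% and 4.09% were (7.62% in all). These shares were not compared by a test. Among the co-receptors of TLR4, Cd14, which hands lipopolysaccharide to the receptor, averaged 27.6 ± 10.0 CPM in KO_UV, against 4.97 ± 0.98 CPM in KO_NoUV, and 26.6 ± 12.4 CPM in WT_UV, against 6.60 ± 3.59 CPM in WT_NoUV (SD, n = 3 each). Its log2 fold change was 2.47 in KO, 2.005 in WT, 1.10 in cKO and 1.57 in FL, called in all 4 (edgeR adjusted p 0.00132, 0.00494, 0.0342 and 0.00617). Lbp, the lipopolysaccharide-binding protein gene, was also higher in all 4, by 1.60, 1.29, 0.80 and 1.33 (adjusted p 0.00461, 0.0172, 0.0346 and 0.00232).

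The cKO calls were the least stable of these, Cd14 losing its call in 6 and Lbp in 7 of 16 fits without 1 library. Both also lost it without the shallow libraries (0.0625 and 0.0634). Lbp in WT was lost in 3 of 12 fits, without WT_NoUV replicate 2 or 3 or WT_UV replicate 3, without the filter (0.0834) and in a fit of the WT groups alone (0.0691).

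Traf3 and Nfkb1 fell in all 4 genotypes. Traf3, a ubiquitin ligase on the TRIF route, had log2 fold changes after UV of -0.77 in KO, -0.65 in WT, -0.71 in cKO and -0.62 in FL (edgeR adjusted p 0.00569, 0.0163, 0.00927 and 0.0214). Nfkb1, which encodes the p105 and p50 NF-kB subunit, changed by -0.76, -0.67, -0.42 and -0.59 (adjusted p 0.00479, 0.0113, 0.0249 and 0.00413). Loss of 1 library ended the Traf3 call in 1 of 12 cases in WT and in 5 of 16 in FL, and the Nfkb1 call in 4 of 16 in cKO, where it was also lost without the filter (0.0729). Fits of the WT groups alone also ended the WT calls of Traf3 (0.0921) and Nfkb1 (0.0905), and a fit of the cKO groups alone that of Traf3 in cKO (0.0519).

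Several kinase and ligase genes fell with UV in both whole-body genotypes. Traf6, the ubiquitin ligase of the MYD88 route, changed by -0.68 in KO and -0.84 in WT (edgeR adjusted p 0.0056 and 0.00219), and Tab2, an adaptor of the TAK1 kinase, by -0.72 and -0.65 (0.0037 and 0.00764). All 4 calls held in each of 12 fits without 1 library. Tbk1, the kinase that phosphorylates IRF3, fell in WT by 0.66 on the log2 scale (adjusted p = 0.0135), also held in all 12, and in KO by 0.51 (adjusted p = 0.0388). In fits of the WT groups alone the WT calls of Tab2 (0.0841) and Tbk1 (0.108) were lost. Irak1, a kinase of the MYD88 route, was higher in KO by 0.45 (adjusted p = 0.014), lost in 4 of 12 and without the filter (0.117). It was also higher after UV in WT, by 0.38 (adjusted p = 0.0373). The related kinase genes Irak4 (-0.56, edgeR adjusted p = 0.0244) and Irak2 (-0.61, adjusted p = 0.0336) were lower there, with smaller p.

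Rel, an NF-kB subunit gene, was lower in KO and WT by -0.94 and -0.91 (edgeR adjusted p 0.0175 and 0.0246), and Irf8, a transcription factor gene of myeloid cells, by -0.95 and -1.12 (0.0271 and 0.0153). Leaving out 1 library ended the Rel calls in 3 and 4 of 12 cases and the Irf8 calls in 5 and 2, and fits of the WT groups alone ended both WT calls (0.108 for Rel and 0.0912 for Irf8). Of 6 dendritic and Langerhans cell markers, all detected in every group, 3 were lower after UV in KO and 2 in WT. They summed to 21.6 to 32.3 CPM in KO_UV, 38.1 to 54.7 CPM in KO_NoUV, 18.2 to 28 CPM in WT_UV and 25.5 to 29.7 CPM in WT_NoUV, and their part in these differences was not tested. Of the dampers of NF-kB, Tnip1 (-0.90, adjusted p = 0.0092) and Tnfaip3 (-1.02, adjusted p = 0.0198) fell in KO, and the Tnfaip3 call was lost without KO_UV replicate 1 or 3 or KO_NoUV replicate 3. Tnfaip3 was also lower in the whole-body than in the keratinocyte UV effect, by -1.09 (adjusted p = 0.00536), as were Rel (-0.77, adjusted p = 0.0209), Tab2 (-0.50, adjusted p = 0.0191) and Tirap, the MYD88 bridging adaptor (-0.70, adjusted p = 0.0421, lost in 19 of 28 fits without 1 library and with RLE size factors, 0.0575).

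Among other receptors, Tlr11, which senses profilin in mice, was lower after UV in KO and WT (-1.65 and -1.54, edgeR adjusted p 0.0153 and 0.0318). Tlr13, a sensor of bacterial ribosomal RNA in mice, was higher in KO (1.34, adjusted p = 0.02) and Tlr1, a partner of TLR2, lower in WT (-1.25, adjusted p = 0.0446). Without 1 library these calls were lost in 2, 3, 4 and 8 of 12 fits. Fits of the WT groups alone ended the calls of Tlr11 (0.136) and Tlr1 (0.107) in WT. Cd180, a receptor of the TLR family on B cells and myeloid cells, was lower in KO (-1.10, adjusted p = 0.0459, lost in 6 of 12) and in WT (-1.96, adjusted p = 0.00404, lost in 0). Pik3ap1, an adaptor for PI3 kinase, was lower in WT (-1.36, adjusted p = 0.00843, lost in 0 of 12).

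Of the target genes, UV called 1 of 10 tested higher in KO, 0 of 10 in WT, 4 of 9 in cKO and 5 of 9 in FL, and none lower. Of all genes, 11.3%, 8.91%, 4.57% and 3.52% were called higher in these genotypes. Il6, a cytokine gene, averaged 5.62 ± 3.00 CPM in cKO_UV, against 0.48 ± 0.23 CPM in cKO_NoUV, and 5.00 ± 1.08 CPM in FL_UV, against 0.63 ± 0.41 CPM in FL_NoUV (SD, n = 4 each). Its log2 fold change was 3.52 in cKO, 3.11 in FL and 3.03 in KO (edgeR adjusted p 0.00107, 0.00236 and 0.00552), and the calls held without any 1 library. Tnf, also a cytokine gene, rose in cKO (1.32, adjusted p = 0.0129) and in FL (1.39, adjusted p = 0.0115), and these calls too held in all fits without 1 library.

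Ifit1, an interferon-induced gene, rose by 0.88 in cKO and 1.33 in FL on the log2 scale (edgeR adjusted p 0.0324 and 0.0041), lost in 6 and 0 of 16. The cKO call was also lost without the filter (0.0676). Il1b rose in cKO (1.39, adjusted p = 0.0322, lost in 6 of 16 and without the shallow libraries, 0.083) and in FL (1.53, adjusted p = 0.0229). The UV effect on Il1b was lower in the whole-body than in the keratinocyte experiment by -1.90 (adjusted p = 0.00639). Ptgs2, the inducible cyclooxygenase gene, rose in FL (2.38, adjusted p = 0.0228, lost in 4 of 16, without the filter, 0.0905, and in a fit of the FL groups alone, 0.0533). Irf7, an interferon-induced regulator that acts downstream of TLR7 and TLR9, rose in KO (1.40, adjusted p = 0.0362, lost in 6 of 12, with the replicate block, 0.0557, and without the filter, 0.171) and in FL (1.07, adjusted p = 0.0165, lost in 1 of 16). Tmem173, which encodes the DNA-response protein STING, rose in cKO (1.09, adjusted p = 0.0145) and FL (0.91, adjusted p = 0.0415), lost in 1 and 9 of 16. The FL call was also lost with the replicate block (0.0559) and in a fit of the FL groups alone (0.0691).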

How the data were processed

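Ribosome-depleted total RNA of 28 skin samples was sequenced. The submitters' processing notes name cutadapt 4.6 for trimming, HISAT2 2.1.0 as aligner and featureCounts of Subread, with no version, as counter. The authors deposited whole-number counts for each gene, not normalized. How strand and multiply aligned reads were treated is not given in the sources used here, which leaves counts of overlapping genes uncertain. The whole-body table follows GRCm38 (99.62% of 55394 matched genes had that position), the keratinocyte table mostly not (2.76% of 51884), so genes were joined by identifier and coordinates come from GENCODE M21. Labels name the same build for both. Unused sample columns numbered 0.

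Each experiment was fitted over its 4 groups with edgeR 4.0.16 (R 4.3.3): TMM scaling, the filterByExpr filter, robust quasi-likelihood tests and Benjamini-Hochberg adjustment over all genes tested, with calls at an adjusted p under 0.05. SE is the log2 fold change divided by the root of the F statistic, and 95% intervals include the spread between samples. P-values measure the spread between samples, since the labels do not say how they were bred or housed. CPM are TMM-scaled, RPKM divide them by exon length, and log2 CPM for correlations used a prior count of 3. The method was tested on simulated counts.

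Members, lists, tests and alternatives were chosen with earlier results of these data known. Named genes were the 10 members, Vsir, and up to 4 called genes with the smallest p per pathway list and comparison. Beyond this rule, Tbk1 for UV in KO, Irak4, Irak2 and Irak1 for UV in WT and Il1b for UV in FL are also given. For these calls no fits without 1 library are reported. Wdfy1 was described without a test in every comparison with whole-body libraries, which goes beyond the written plan for the UV effects. Comparisons within an experiment share libraries. Same-numbered UV and no-UV samples deviated together in every pair in KO (r of 0.23 to 0.34 over 12383 genes) and cKO (0.31 to 0.68 over 12643 genes), but not in WT (-0.54 to 0.43), FL (-0.25 to 0.65) or between genotypes. Alternatives were DESeq2 1.42.0, RLE factors, no filter, no robust estimation, the replicate block, a hair follicle score as covariate, only the groups compared, each library left out, and, chosen after seeing the data, the 2 shallow libraries (FL_NoUV replicate 1 and cKO_UV replicate 3) left out.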

Additional observations from a re-analysis of the deposited data

Results flagged for a closer look

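Of 40 groups of 4 libraries tested for a value far from the rest, 3 were marked by Dixon's test, where chance marks about 1 in 20. Myd88 was at 68.1 CPM in FL_UV replicate 3, against 44.1 to 45.4 CPM in the other FL_UV libraries. Myd88 was at 27.7 CPM in FL_NoUV replicate 4, against 37.1 to 38.2 CPM in the other FL_NoUV libraries. Irf3 was at 33.8 CPM in cKO_NoUV replicate 1, against 32.5 to 32.7 CPM in the other cKO_NoUV libraries.

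The UV effect was called different between experiments for 2 members in the joint edgeR fit. It was lower in the whole-body than in the keratinocyte experiment for Tlr9, by -1.66 on the log2 scale (adjusted p = 0.0422), and for Ticam1, by -0.73 (adjusted p = 0.0269). Leaving out 1 library ended the Tlr9 call in 17 of 28 fits and the Ticam1 call in 2 of 28. Both were lost without the filter on low counts (0.0979 and 0.0803). Batch, controls and depth cannot be told apart from the mice here.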

How the results depend on the processing

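Of 2870 values of members under other settings, 2574 kept direction and call, 92 lost a call, 41 gained one, 163 uncalled values changed sign, and 0 called values reversed. RLE scaling moved the median of all genes by at most 0.026 (log2). The block changed member calls beyond those given above in UV in FL, where Myd88 gained (adjusted p = 0.0211) and Tlr4 lost its call (0.0689), in UV in WT, where Ticam1 lost its call (0.0621), and in KO against WT, where Tlr7 (0.0486) and Ticam2 (0.0245) gained calls. These numbers do not pair the samples there. The hair follicle score as covariate gained calls for KO against WT after UV (Tlr3 0.0333, Tlr4 0.0116, Tlr7 0.0483, Ticam2 0.0116, all higher) and over both treatments (Tlr7 0.0175 and Ticam2 0.00411, higher, and Irf3 0.0497, lower). It also gained Tlr4 (0.00783) and Tlr7 (0.0318) for UV in KO and Tlr2 (0.036), Tlr7 (0.0114) and Myd88 (0.047) for UV in FL, all higher, and lost Myd88 for UV in KO (0.0592). A fit of the KO groups alone gained Tlr4 for UV (0.00475).

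Counts of called genes depended on the setting, and the cause was not tested. Without the filter they were 1276 for UV in cKO, 992 for UV in FL, 185 and 162 for KO against WT without and after UV, and 1 and 1 for cKO against FL without UV and over both treatments. With DESeq2 they were 2984 for UV in cKO and 2443 for UV in FL. KO against WT had 584 without UV, 444 after UV and 3427 over both. The cKO against FL counts were 7, 2 and 94. The replicate block gave 22 and 31 for KO against WT without and after UV, and 1 and 1 for cKO against FL without UV and over both. With the hair follicle score they were 2907 for UV in cKO and 2600 for UV in FL, and 40, 374 and 4044 for KO against WT without UV, after UV and over both. Fits of only the groups compared gave 7493 for UV in KO, 1288 in WT and 953 in FL, and 4 for KO against WT without UV.

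Leaving out 1 library gave 2832 to 5683 for UV in KO (4552 with all), 2734 to 4315 in WT (3817), 1178 to 2424 in cKO (1917) and 884 to 1696 in FL (1502). KO against WT gave 2 to 27 without UV (2), 2 to 155 after UV (9) and 235 to 3076 over both (1517). The joint fit gave 1474 to 2105 (1986). At 14 reads, Tlr9 in KO_UV was the member most limited by depth.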
